A study of Mus musculus with 4 samples.

Results

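The 10 genes described here belong to the families of enzymes and channels of which some members turn an activated taste receptor into a calcium signal and a depolarization. They are the phospholipases Plcb1, Plcb2, Plcb3, Plcb4 and Plcg2, the IP3 receptors Itpr1, Itpr2 and Itpr3, and the calcium-activated cation channels Trpm4 and Trpm5. They were taken by gene symbol from a table of 48709 genes, in which all 10 were found, by a rule that uses no measured value. The list of symbols itself was chosen with earlier results of these data known. The question was which isoform of each family was used by each sort of cells in each tissue.

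Phospholipase C cleaves the membrane lipid PIP2 into diacylglycerol and IP3. IP3 opens its receptors in the endoplasmic reticulum, and the released calcium opens TRPM channels that depolarize the cell. In taste cells this chain is known to run through Plcb2, Itpr3 and Trpm5, and chemosensory tuft cells of the airways and the gut are known to use parts of it. Plcb enzymes are driven by G proteins, whereas Plcg2 is driven by tyrosine kinases and is best known from blood cells.

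The cells came from Tas2r143-reporter mice on a C57BL/6 background, which carried the Tas2r143-CreERT2 transgene together with the Rosa26flox-mT-stop-flox-mG allele. All were adult, received tamoxifen for 5 days and were analyzed 5 days later. In these mice Cre under the Tas2r143 promoter of a BAC transgene switches cells and their progeny from the fluorescent protein Tomato to EGFP. The sort for EGFP used no gate on the epithelial protein EpCAM, whereas the sort for Tomato took EpCAM-positive cells without EGFP. Equal numbers of both were collected from 3 pooled mice of a single transgenic line, which gave 4 libraries, EGFP and Tomato of the trachea and of the stomach, and no replicate.

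Every ratio below therefore compares 2 libraries, and its 95% interval is an exact binomial interval that covers counting error only. Fewer cells of a type and less RNA per cell cannot be told apart in such libraries. The value given is the normalized count, a read count per gene divided by the authors by a factor for each library. Normalized counts summed to between 9.98 and 15.4 M per library, and 1 read was worth between 0.786 and 1.61 of them, which put the estimated reads between 6.20 M for tracheal EGFP and 18.9 M for gastric Tomato cells. A gene was taken as higher or lower from a 4-fold difference on, on the scale of log2((first + 1)/(second + 1)), where the higher library held at least 50 normalized counts. The titles of the libraries name 1 tissue and their tissue fields the other, and the titles are followed here, so every statement on a tissue below depends on them. By title, 3 club cell genes summed to 483341 normalized counts in the Tomato library of the trachea and 69 in that of the stomach, and 3 chief cell genes to 2 and 1083549. Of 14 tuft cell markers that are not members, 13 were higher in the EGFP library of the trachea and 14 in that of the stomach. Tomato libraries held such markers too, 11 of the 14 at 50 or more in the trachea and 12 in the stomach. Their sums there were 3570 and 11300, against 106139 and 183044 in the EGFP libraries. By microscopy, the authors found EGFP in a much smaller part of cells with the tuft cell marker DCLK1 in the stomach corpus than in the trachea. What this means for the EGFP/Tomato ratios of the 2 tissues was not tested.

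RefSeq promoter entries (GRCm38.p6) were found for 8 of the 10 genes. Those of 5 genes are shown, because these genes carried most of the phospholipase, IP3 receptor and TRPM transcripts of the EGFP libraries. Each line is the 250 bases before the transcription start, 5′ to 3′ on the strand of the gene. Capitals mark matches, on either strand, to the octamer ATGCAAAT bound by POU factors, the TATA box TATAAA, the GC box GGGCGG, the CCAAT box CCAAT and the E-box CACGTG. The windows are chr7:143094643-143094892, minus strand for Trpm5, chr2:118728439-118728688, minus strand for Plcb2, chr8:117498025-117498274, plus strand for Plcg2, chr6:146502224-146502473, minus strand for Itpr2 and chr17:27057054-27057303, plus strand for Itpr3.
Trpm5: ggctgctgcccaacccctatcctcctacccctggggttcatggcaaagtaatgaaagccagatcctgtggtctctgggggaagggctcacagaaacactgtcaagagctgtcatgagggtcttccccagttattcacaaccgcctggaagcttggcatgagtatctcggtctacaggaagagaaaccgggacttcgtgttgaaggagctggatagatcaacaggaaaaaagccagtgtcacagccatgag
Plcb2: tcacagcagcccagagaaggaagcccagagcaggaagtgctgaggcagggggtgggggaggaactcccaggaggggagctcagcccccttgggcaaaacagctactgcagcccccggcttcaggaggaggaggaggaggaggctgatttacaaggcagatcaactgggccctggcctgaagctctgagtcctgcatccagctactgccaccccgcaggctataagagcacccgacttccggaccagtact
Plcg2: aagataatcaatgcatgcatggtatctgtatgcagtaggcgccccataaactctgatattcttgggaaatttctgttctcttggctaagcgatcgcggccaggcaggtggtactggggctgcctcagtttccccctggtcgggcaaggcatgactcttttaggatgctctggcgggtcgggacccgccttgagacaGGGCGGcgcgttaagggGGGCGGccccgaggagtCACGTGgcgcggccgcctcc
Itpr2: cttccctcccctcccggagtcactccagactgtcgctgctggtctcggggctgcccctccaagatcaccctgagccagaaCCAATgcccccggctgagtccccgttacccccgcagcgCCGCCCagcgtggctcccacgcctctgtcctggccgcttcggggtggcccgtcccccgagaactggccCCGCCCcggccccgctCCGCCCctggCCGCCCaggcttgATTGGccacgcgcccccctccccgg
Itpr3: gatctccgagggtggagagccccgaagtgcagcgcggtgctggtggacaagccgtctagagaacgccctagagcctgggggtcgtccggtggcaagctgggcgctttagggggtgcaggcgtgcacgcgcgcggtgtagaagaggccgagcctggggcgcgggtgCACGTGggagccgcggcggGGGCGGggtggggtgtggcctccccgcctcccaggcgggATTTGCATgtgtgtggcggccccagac

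The windows of Trpm5 and Plcb2 held none of these motifs and 4 CpG dinucleotides each, while the median over 32851 promoter windows of this length was 6. The windows of Plcg2, Itpr2 and Itpr3 held 17, 22 and 25 CpG dinucleotides, and 10.7% of all windows held 25 or more. GC boxes stood in those 3 windows, with 2 matches in Plcg2, 4 in Itpr2 and 1 in Itpr3, and 32.7% of all windows had at least 1. An octamer was found in the window of Itpr3, on the opposite strand from base -27 to base -20 before the start, and in 1.60% of all windows. An E-box stood from base -85 to -80 in Itpr3 and from -20 to -15 in Plcg2, against 6.02% of all windows, and Itpr2 held 2 CCAAT boxes, against 33.8% of windows with at least 1. TATA boxes were in 12.4% of all windows and in none of the 5 shown. These matches describe letters, not sites in use.

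**Figure D1:**
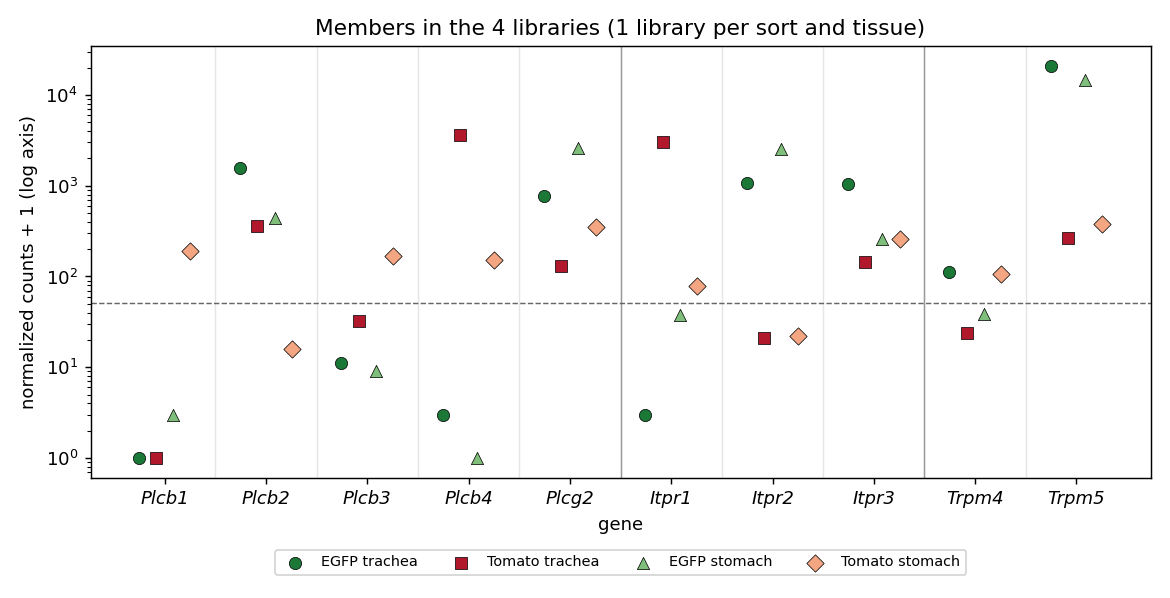
Normalized counts + 1 (log axis) of the 10 genes in the 4 libraries, 1 symbol per library, with the minimum of 50 as a dashed line. Trpm5 stands highest in both EGFP libraries with 21065 and 14548, while Plcb4 and Itpr1 hold 3655 and 3064 in the Tomato library of the trachea and are at 2 in its EGFP counterpart.

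In the trachea, 8 of the 10 genes reached the minimum, with 6 higher in the EGFP library and 2 lower. Of all 10523 genes measured there, 25.2% were higher and 32.4% lower. The median log2(EGFP/Tomato) of the 8 genes was 2.40, beside -0.32 over all genes. In the stomach all 10 genes were measured, with 4 higher, 3 lower and 3 neither, where 14.8% of 11094 genes were higher and 22.4% lower. Here the median of the 10 was -0.51, beside -0.15 over all genes. Plcb2, Plcg2, Itpr2 and Trpm5 were higher in both tissues and Plcb4 was lower in both.

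Among the phospholipases, Plcb2 and Plcg2 shared the EGFP libraries, and their order was opposite in the tissues. Plcb2 (ENSMUSG00000040061, chromosome 2, 118707517 to 118728438, minus strand), the enzyme of the taste cascade, held 1575 normalized counts in tracheal EGFP and 358 in tracheal Tomato cells, and 438 and 15 in those of the stomach. The EGFP library was thus the higher one in each tissue. The ratio EGFP/Tomato was 4.40 (95% interval 3.92 to 4.93) in the trachea and 29.2 (18.7 to 50.7) in the stomach, the latter against about 18 reads. On the log2 scale the tracheal minus the gastric ratio was -2.64 (interval of counting error -3.46 to -2.07). Between the EGFP libraries Plcb2 was 3.60 times as high in the trachea (3.24 to 4.0), and between the Tomato libraries 23.9 times (15.3 to 41.6).

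Plcg2 (ENSMUSG00000034330, chromosome 8, 117498291 to 117635142, plus strand) held 771 and 129 normalized counts in tracheal EGFP and Tomato cells, and 2597 and 354 in those of the stomach. The EGFP library was higher in each tissue, by 5.98 times (5.00 to 7.22) in the trachea and 7.34 times (6.63 to 8.12) in the stomach. The tracheal minus the gastric log2 ratio was -0.30 (-0.59 to 0.01), an interval that includes 0. The stomach was the higher tissue in both sorts, with 3.37 times the tracheal level between EGFP libraries (3.06 to 3.71) and 2.74 times between Tomato libraries (2.29 to 3.32).

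Per kb of merged exons, which sets genes of different length on 1 scale, Plcb2 made up 56.9% (54.2 to 59.6) of the 5 phospholipases in the EGFP library of the trachea and Plcg2 42.7% (40.1 to 45.5). In the EGFP library of the stomach Plcg2 made up 89.9% (89.1 to 90.7) and Plcb2 9.88% (9.09 to 10.7). Plcb2 was thus at 1.33 times the per kb level of Plcg2 in EGFP-positive cells of the trachea (1.19 to 1.49), and Plcg2 at 9.10 times that of Plcb2 in those of the stomach (8.32 to 9.98). The other 3 enzymes together stayed under 1% in either EGFP library.

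Markers of B and plasma cells, in which Plcg2 is also known to act, were higher in the EGFP libraries as well. Of 12 such genes, 9 were higher and 1 lower in the gastric EGFP than the gastric Tomato library, with sums of 1397663 and 69922 normalized counts, and the tracheal sums were 34001 and 3233. The gastric EGFP and Tomato libraries held 669648 and 32337 of the antibody gene Igha, 2855 and 2 of the B cell receptor gene Cd79b, 1848 and 59 of the plasma cell gene Mzb1 and 22 and 186 of the kinase gene Btk, and the B cell gene Ms4a1 was at 0 in both. In the trachea 4 of 6 measured markers were higher in EGFP cells, Igkc at 12790 against 948, Igha at 11389 against 3, Jchain at 5156 against 15 and Cd79b at 1386 against 1, and Ighm was lower at 2 against 580. The 6 markers that were not measured there, among them Cd79a, Ms4a1, Mzb1 and Btk, were listed at 0 in both tracheal libraries. The part of these cells in the level of Plcg2 was not tested in either tissue. Of 12 myeloid markers, 7 were listed at 0 in the EGFP library of the trachea and 8 in that of the stomach, with sums of 904 and 2388 against 62202 and 35657 in the Tomato libraries.

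Plcb4 (ENSMUSG00000039943, chromosome 2, 135659011 to 136014593, plus strand), a G protein-driven enzyme best known from the retina and the brain, was nearly confined to Tomato libraries. It held 3655 normalized counts in the Tomato library of the trachea and 149 in that of the stomach, and 2 and 0 in the EGFP libraries. About 1 read stood in the EGFP library of the trachea, and the Tomato/EGFP ratio of 1828 had an interval of 407 to 89689. In the stomach, with 0 in the EGFP library, the Tomato/EGFP ratio of Plcb4 had a lower interval bound of 51.0. It made up 82.1% of the phospholipases per kb in the tracheal Tomato library (80.9 to 83.3) and 11.7% in the gastric one (10.1 to 13.4).

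Plcb1 (ENSMUSG00000051177, chromosome 2, 134786067 to 135475258, plus strand) was found in the gastric Tomato library, with 190 normalized counts, against 2 in the gastric EGFP library and 0 in both libraries of the trachea. The Tomato/EGFP ratio in the stomach was 95 (27.3 to 394), resting on about 3 reads in the EGFP library. Between the Tomato libraries Plcb1 was lower in the trachea, where it was at 0, and the stomach/trachea ratio had a lower interval bound of 63.2. Plcb3 (ENSMUSG00000024960, chromosome 19, 6952325 to 6976470, minus strand), a form that many epithelia use, held 10 and 31 normalized counts in tracheal EGFP and Tomato cells and 8 and 167 in those of the stomach. It was highest in the gastric Tomato library, 20.9 times the EGFP level there (11.3 to 45.0), and a difference between the EGFP libraries, at a ratio of 1.25 (0.367 to 3.73), was not detectable at this depth. In the trachea Plcb3 missed the minimum of 50.

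The Tomato libraries thus differed from each other in their main phospholipase. Plcb4 led in the trachea, followed by Plcb2 with 10.9% and Plcg2 with 6.05%. In the stomach Plcg2 led with 57.9% per kb (54.8 to 60.8), followed by Plcb3 with 16.9% (14.8 to 19.1), Plcb1 with 12.0% (10.5 to 13.6) and Plcb4, and Plcb2 was last with 1.60% (0.929 to 2.46). The intervals of Plcb1 and Plcb4 overlapped. The order of these 3 depended on the length used, since without a correction Plcb1, at 21.7%, passed Plcb3, at 19.1%, and with the longest transcript Plcb4, at 16.1%, passed Plcb1, at 14.9%. All 5 enzymes summed to 420 and 496 normalized counts per kb in the EGFP and Tomato libraries of the trachea and to 672 and 142 in those of the stomach. The part of tuft cells, whose markers were also found in the Tomato libraries, in the shares of those libraries was not tested.

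**Figure D2:**
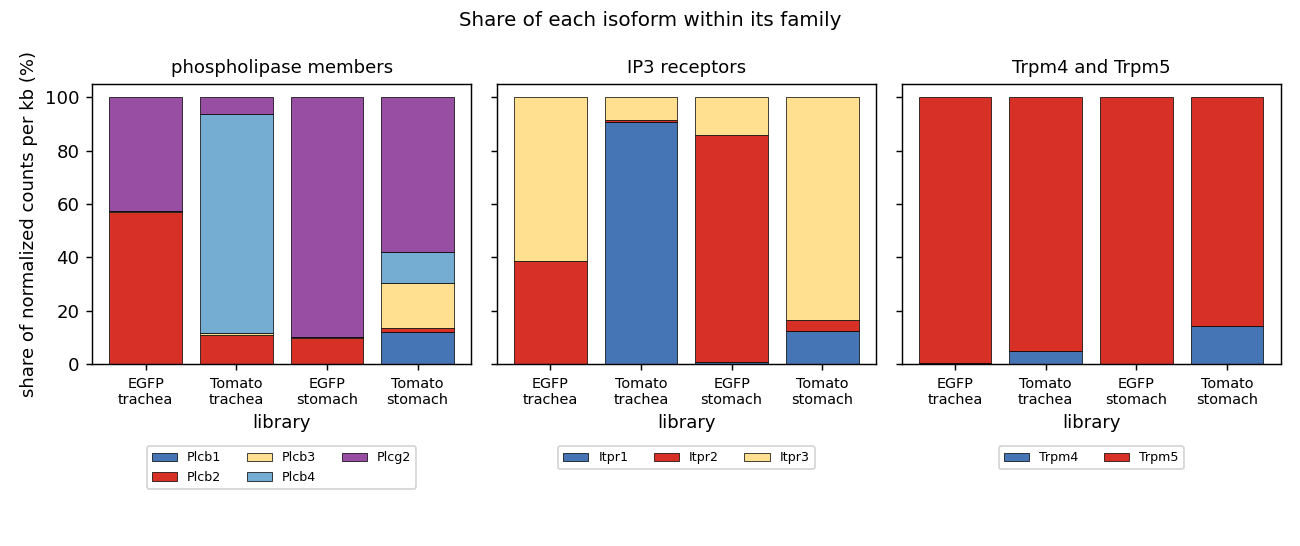
Share of each gene in the summed normalized counts per kb of its family (%), for the phospholipases, the IP3 receptors and the TRPM channels, with 1 stacked bar per library. Plcg2 makes up 42.7% of the phospholipases in the EGFP library of the trachea and 89.9% in that of the stomach, and Itpr1 makes up 90.7% of the IP3 receptors in the Tomato library of the trachea.

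The leading IP3 receptor differed between the sorts in both tissues. Itpr2 (ENSMUSG00000030287, chromosome 6, 146108299 to 146502223, minus strand), an IP3 receptor of high affinity for IP3, held 1069 and 20 normalized counts in tracheal EGFP and Tomato cells and 2548 and 21 in those of the stomach. Both EGFP libraries stood far above both Tomato libraries, which did not differ beyond counting error (ratio trachea to stomach 0.952, 0.528 to 1.72). The ratio EGFP/Tomato was 53.5 (35.5 to 82.3) in the trachea and 121 (81.8 to 184) in the stomach, and in the stomach no other of the 10 genes had a larger one. Between the EGFP libraries the stomach was 2.38 times as high (2.19 to 2.60).

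Itpr3 (ENSMUSG00000042644, chromosome 17, 27057304 to 27122223, plus strand), the receptor of the taste cascade, held 1032 and 142 normalized counts in tracheal EGFP and Tomato cells. In the stomach it held 260 and 256. The EGFP library of the trachea stood apart from the other 3, by a ratio of 7.27 (6.13 to 8.61) over its Tomato counterpart, whereas the gastric ratio was 1.02 (0.867 to 1.19). The log2 ratios of the tissues differed by 2.83 (2.51 to 3.16). Between the EGFP libraries Itpr3 was 3.97 times as high in the trachea (3.47 to 4.54), a log2 difference of 1.98 that lay just under the 4-fold rule.

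Itpr1 (ENSMUSG00000030102, chromosome 6, 108213096 to 108551109, plus strand), the main IP3 receptor of neurons, held 3064 normalized counts in the Tomato library of the trachea and 2 in its EGFP counterpart. In the stomach it held 77 in the Tomato and 37 in the EGFP library. The tracheal Tomato library was 39.8 times as high as the gastric one (32.5 to 49.6). The Tomato/EGFP ratio was 1532 in the trachea, with an interval of 341 to 75180 that rests on about 1 read, and 2.08 (1.45 to 3.01) in the stomach.

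Per kb, Itpr3 made up 61.3% (58.6 to 63.9) and Itpr2 38.7% (36.1 to 41.3) of the IP3 receptors in the EGFP library of the trachea. Without a correction for length the shares were 49.1 and 50.8%, so that the order of these 2 turned. In the EGFP library of the stomach Itpr2 made up 84.8% (83.4 to 86.2) and stood at 5.97 times the per kb level of Itpr3 (5.33 to 6.70). The tracheal Tomato library held mostly Itpr1, with 90.7% (89.4 to 91.9), and the gastric Tomato library mostly Itpr3, with 83.5% (80.3 to 86.3). Per kb, each of the 4 libraries had its own order of the receptors, whereas without a correction for length the EGFP libraries of both tissues had the same one. The 3 receptors summed to 187 and 184 normalized counts per kb in tracheal EGFP and Tomato cells and to 203 and 34.0 in those of the stomach. Without a correction these sums were 2103, 3226, 2845 and 354 normalized counts.

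Plcb4 and Itpr1 were high in the same library, and markers of several cell types were high there with them. In the Tomato and EGFP libraries of the trachea, 4 basal cell genes summed to 127377 and 1571 normalized counts, 3 club cell genes to 483341 and 17421, 6 fibroblast genes to 25749 and 478 and 4 smooth muscle genes to 1128 and 89. The myeloid list summed to 62202 and 904, the T and NK cell list to 1579 and 98 and the ciliated list to 2329 and 927. Goblet, neck and endothelial sums were also higher in the Tomato library. The tuft, B and plasma cell, mast cell, parietal and epithelial sums were higher in the EGFP library. The mast cell sum of that library was Kit alone, at 784 against 139, while Mcpt2 stood at 0 against 155. Its parietal sum was Atp4a alone, at 749 against 19, with Atp4b at 0 in both libraries. The 4 neuronal and glial markers were all listed at 0 in the Tomato library. Which of these cells carried Plcb4 and Itpr1 was not tested. In the gastric Tomato library, where Plcb1 stood at 190, the neuronal and glial list summed to 129, the smooth muscle list to 2702 and the enteroendocrine list to 211223. Among other lists there, chief cell genes summed to 1083549, pit cell genes to 875007, myeloid genes to 35657, fibroblast genes to 26105 and mast cell genes to 4208. The part of any of these cells in Plcb1 was not tested either.

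Trpm5 (ENSMUSG00000009246, chromosome 7, 143069153 to 143094642, minus strand), the channel that depolarizes taste cells, was the most abundant of the 10 genes in the EGFP libraries, both in normalized counts and per kb. It held 21065 and 265 normalized counts in tracheal EGFP and Tomato cells and 14548 and 376 in those of the stomach. Per kb, its level was 3292 in the EGFP library of the trachea and 2274 in that of the stomach, which was 13.8 times the level of Plcb2 in the trachea (12.9 to 14.7) and 34.2 times in the stomach (31.5 to 37.3). The ratio EGFP/Tomato was 79.5 (71.1 to 88.8) in the trachea and 38.7 (35.3 to 42.5) in the stomach, a log2 difference of 1.04 between the tissues (0.83 to 1.24). Between the EGFP libraries Trpm5 was 1.45 times as high in the trachea (1.42 to 1.48).

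Trpm4 (ENSMUSG00000038260, chromosome 7, 45302632 to 45333780, minus strand), the close relative of Trpm5 that many tissues use, was higher in EGFP cells of the trachea and missed the 4-fold rule in the stomach, where its ratio had the opposite sign. It held 111 and 23 normalized counts in tracheal EGFP and Tomato cells and 38 and 105 in those of the stomach. The EGFP/Tomato ratio was 4.83 in the trachea (3.12 to 7.90), and the Tomato/EGFP ratio in the stomach was 2.76 (1.99 to 3.97), with between about 28 and 129 reads in each library. With a pseudocount of 10 the tracheal log2 ratio was 1.87, under the rule of size, and with a minimum of 500 the gene was not measured. Per kb, Trpm5 made up 99.7% of both channels in the EGFP library of the trachea (99.6 to 99.8) and 99.8% in that of the stomach (99.8 to 99.9). In the Tomato libraries its share was 95.1% (93.1 to 96.8) in the trachea and 85.8% (83.2 to 88.1) in the stomach. Tuft cell markers were also found in these Tomato libraries, and the part of tuft cells in this share was not tested.

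**Figure D3:**
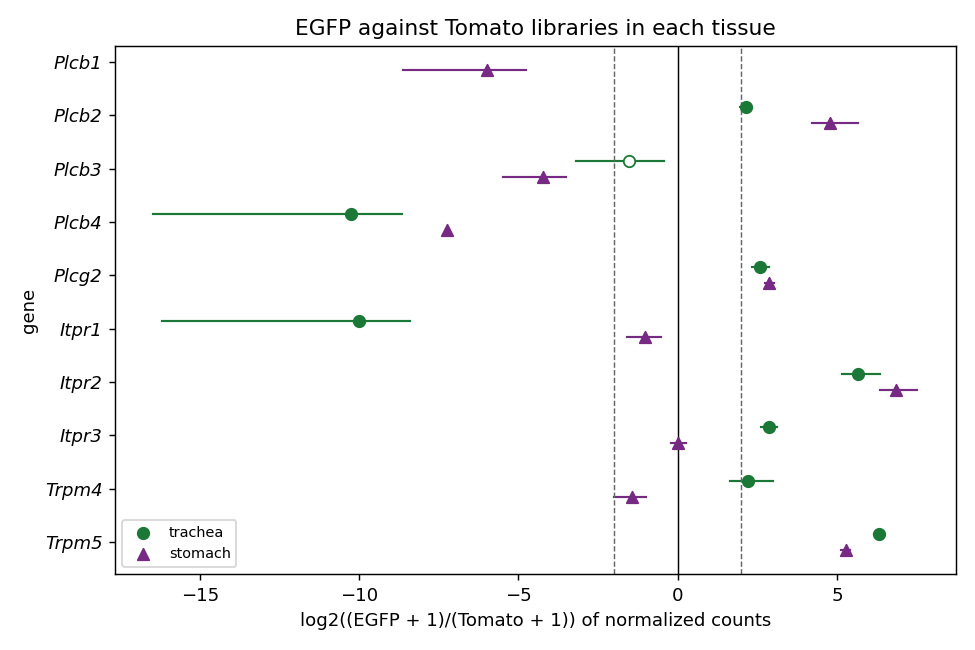
log2((EGFP + 1)/(Tomato + 1)) of the 10 genes in the trachea (circles) and the stomach (triangles), with lines for 95% intervals of counting error where both libraries hold reads, an open symbol for a gene under the minimum of 50, no tracheal symbol for Plcb1, listed at 0 in both libraries, and dashed lines at 2 and -2. Itpr3 stands at 2.85 in the trachea and 0.02 in the stomach, and Trpm4 at 2.22 and -1.44.

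When the EGFP libraries of the tissues were compared, none of the 6 measured genes differed by 4-fold, with 0 higher and 0 lower, while 19.8% of 10337 genes were higher in the trachea and 28.3% lower. Plcb2, Itpr3, Trpm4 and Trpm5 leaned to the trachea and Plcg2 and Itpr2 to the stomach, each by more than counting error. With the libraries set to the same total, which moved the median over all genes by 0.45 on the log2 scale toward the trachea, Plcb2 and Itpr3 passed the rule at 2.29 and 2.43. Between the Tomato libraries, 3 of 9 measured genes were higher in the trachea (Plcb2, Plcb4 and Itpr1) and 3 lower (Plcb1, Plcb3 and Trpm4), beside 20.3 and 27.9% of 11338 genes. The same total moved the median log2(EGFP/Tomato) over all genes by 0.57 in the trachea and 0.18 in the stomach, and changed no call of the 10 genes within a tissue.

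The genes whose profile over the 4 libraries was closest to a member were found by the distance between log2 profiles, each centred on its mean, among 13023 genes. For Trpm5 these included Tnnt1 and Gng13, at distances of 0.53 and 0.60. Gng13, the G protein gamma subunit of taste cells, was the more abundant of these, with 5721 and 78 in the EGFP and Tomato libraries of the trachea and 2506 and 89 in those of the stomach. Spata2l, 9830144P21Rik and Ythdf1 were closest to Plcb2 (0.51, 0.68 and 0.73), Ttc17, Gopc and Cflar to Plcg2 (0.35, 0.40 and 0.54) and Zmat3, Gm11946 and Dscaml1 to Itpr2 (0.34, 0.37 and 0.40). Phtf1, RP23-187B11.6 and Col4a5 were closest to Plcb4 (0.87, 1.13 and 1.14). These are distances over 4 libraries and no more than a description.

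Other genes of the pathway were followed in lists that left out the 10 members, and the counts below stand beside the shares over all genes, 25.2% higher and 32.4% lower in the trachea and 14.8 and 22.4% in the stomach. Of the G proteins known to drive Plcb enzymes, Gnaq was lower in EGFP-positive cells of the trachea with 1013 against 11283 normalized counts, and Gna15 with 0 against 879. Gna14 and Gna11 were neither higher nor lower in the trachea, at 945 and 1287 and at 8924 and 10673. In the stomach Gna14 was higher, with 548 against 0, while Gnaq and Gna11 were neither, at 2788 and 1571 and at 14767 and 10797. The median of the 4 in the trachea was -1.96, and that of the 3 measured in the stomach 0.83. Gnat3, the G protein subunit of taste cells, stood at 13865 and 524 in the trachea and 3685 and 473 in the stomach.

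Of 10 other phospholipase C genes, none exceeded 448 normalized counts in any library. Of 6 measured in the trachea 3 were higher and 3 lower, and of 5 in the stomach 2 and 2. Plch1, an eta form, was higher in both tissues, with 448 against 0 in the trachea and 216 against 32 in the stomach, and Plch2 was higher in the trachea with 372 against 74. Plcl1, a related protein without enzyme activity, was higher in the stomach with 131 against 7. Plcd1 was lower in both tissues, at 0 against 289 and 0 against 57, and Plcg1, the sister form of Plcg2, was lower in the trachea at 0 against 135.

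A list of kinases and adaptors known from the activation of Plcg enzymes in blood cells, which also holds Plcg1 itself, was higher for 6 of 11 genes in the trachea and 7 of 12 in the stomach, with 3 (Plcg1, Src and Vav3) and 2 lower, and medians of 3.62 and 2.58. Bmx, Vav1 and Sh2d6 were higher in both tissues and also stand on the tuft cell list. The Src family kinase Lyn was higher in the stomach, with 7240 against 905, and neither in the trachea, with 800 against 1762. Blnk, an adaptor that binds Plcg2 in B cells, was at 1625 against 225 in the stomach, where it was higher, and at 3278 against 1686 in the trachea. Btk, which activates Plcg2 in B cells, and the adaptor gene Lcp2 were lower in the stomach, at 22 against 186 and 2 against 234. Syk stayed at 40 or less in all libraries.

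Of 11 partners of IP3 receptors measured in the trachea 5 were higher and 3 lower, and of 12 in the stomach 2 and 3, with medians of -0.01 and -0.28. Lrmp, which encodes a membrane protein that binds IP3 receptors, had the highest value of this list in both tissues, 109136 against 1150 in the trachea and 59729 against 2875 in the stomach. Erlin1 and Erlin2, which mark IP3 receptors for breakdown, were higher in the trachea at 341 against 40 and 306 against 38, and neither in the stomach at 1161 against 1094 and 258 against 412. Ahcyl1, which competes with IP3 for its receptors, was lower in the trachea at 298 against 3879, and Bok, which binds Itpr1 and Itpr2, was lower in both, at 0 against 587 and 108 against 625.

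Genes of calcium stores and calcium entry were higher for 4 of 13 in the trachea and 6 of 15 in the stomach, with 3 and 2 lower, and in the trachea 25.2% of all genes were higher and 32.4% lower. Atp2a3, a calcium pump of the endoplasmic reticulum, was higher in both tissues, with 11629 against 367 and 11155 against 896, whereas Atp2a2, the form that most cells use, was neither at 176 against 414 and 565 against 514. The entry channel gene Orai3 was higher in the trachea, at 1955 against 38, and lower in the stomach, at 63 against 461. Stim2, a sensor of store calcium, was higher in the stomach at 2431 against 251 and held 2 and 17 in the trachea. The medians of the list were -0.88 and 0.88.

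Apart from Trpm5 and Trpm4, only Trpm7 of the TRPM genes reached the minimum, with 456 and 601 in the trachea and 821 and 363 in the stomach, and it was neither higher nor lower. Of 18 other TRP channel genes, 4 were measured in the trachea, where Trpv2 was higher with 343 against 0 and Trpv4 was lower at 24 against 800. In the stomach 3 were measured, and Pkd2 was lower at 4 against 93. Among channels and scramblases that calcium activates, Ano7 was higher in both tissues, with 905 against 2 and 1716 against 122. Ano6 was higher in both as well, with 1045 against 81 and 3470 against 825, and Ano10 in the stomach with 5235 against 70. The chloride channel gene Ano1 was lower in both, with 0 against 1387 and 1 against 263. Of the 14 taste transduction genes outside the 10 members, 7 of 8 measured were higher in the trachea and 0 lower, and 3 of 6 in the stomach (Tas1r3, Gng13 and Gnat3) with 2 lower. The latter were the sodium channel gene Scn3a, at 0 against 281, and the phosphodiesterase gene Pde1a, at 0 against 70.

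**Figure D4:**
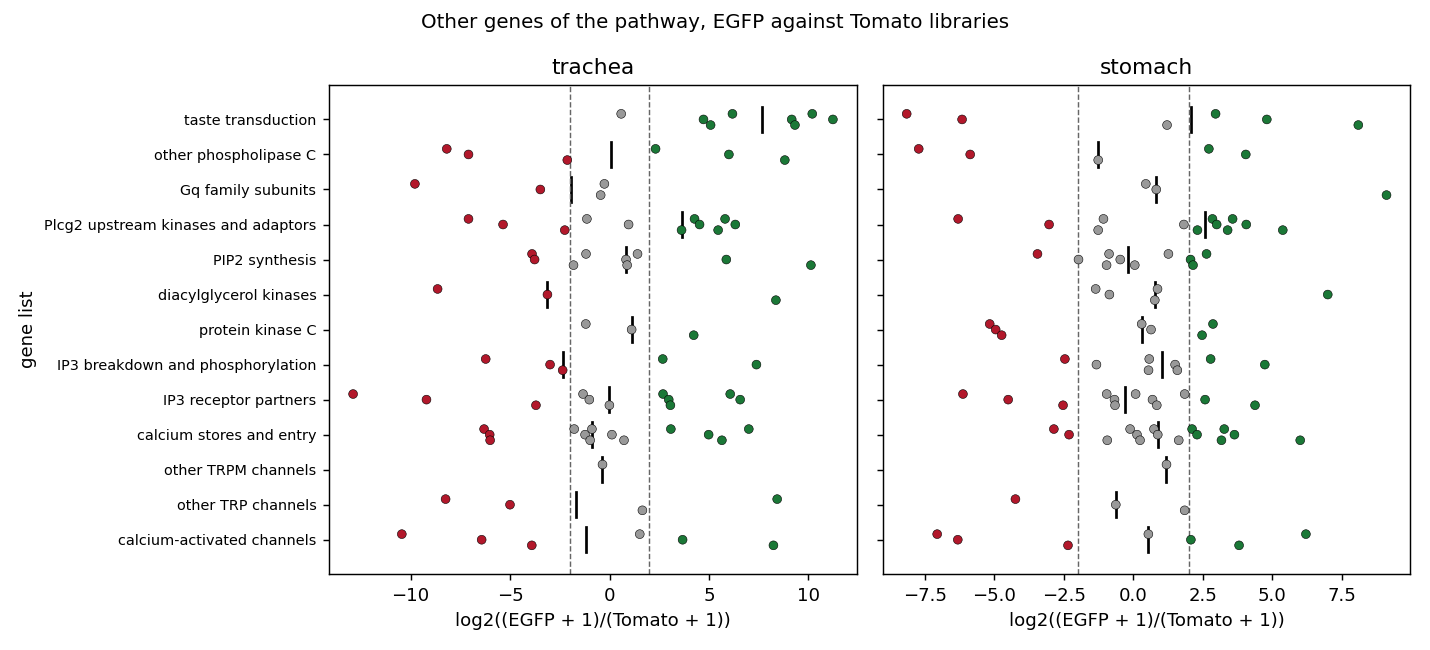
log2((EGFP + 1)/(Tomato + 1)) of the measured genes of 13 lists around the pathway in the trachea (left) and the stomach (right), 1 point per gene, green from 2 on, red from -2 down and grey between, with list medians as bars. The list of kinases and adaptors, Plcg1 included, has medians of 3.62 and 2.58, and the partners of IP3 receptors spread to both sides of 0.

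Exons of 5 members overlap other annotated genes, by between 0.316% of merged exon bases for Plcb3 and 3.44% for Trpm5, which overlaps Tssc4, and the authors left out reads that overlapped several genes. Itpr3 shares 2.59% with an antisense transcript, Itpr3os, and a microRNA gene, and whether reads were counted by strand is not stated. A small part of its reads may therefore have been left out. Where the annotation used by the authors differs, a small part may instead belong to either gene.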

How the data were processed

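RNA-seq was performed on 4 libraries, EGFP- and Tomato-positive cells of trachea and stomach, each pooled from 3 mice. Reads were quality-trimmed (Reaper) by the authors, mapped on GRCm38 (STAR 2.4.0a) and summed per gene over exons (featureCounts 1.4.5-p1), without reads that hit several genes or places. As signal, the authors deposited these sums after division by 1 factor per library, rounded (normalized counts). Their derivation was not given in the sources used here. Full-length cDNA was amplified by PCR without molecular identifiers.

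The worth of 1 read was estimated from which whole numbers between 3 and 60 occurred, a step checked on simulated data, and gave estimated reads. Rounding merges neighbouring reads, so no count model was run, and 1 library per group allows no test. Of the 116 symbols that occur on more than 1 line, the line of highest total was kept. Ratios carry exact binomial 95% intervals, and differences between log2 ratios carry intervals from the summed inverse reads. Per kb levels used merged exons of GENCODE M21 (GRCm38), which may differ from the annotation the authors counted on. Shares carry binomial intervals with the makeup of the other members held fixed. Alternatives were pseudocounts of 0.1 and 10, other minimums, an 8-fold rule, 4 other scalings, and other lengths. Marker and pathway lists, the rule of size and the 10 members were chosen with earlier results of these data known. Named were all members, up to 4 genes per list with the largest difference past the rule in a tissue, the Gq family and Gnat3, the 3 genes closest to each member called alike in both tissues, and markers beside a result. Outside this rule, Plch2, Src, Vav3, Syk, Btk, Lyn, Blnk, Vav1, Ahcyl1, Erlin1, Erlin2, Orai3, Atp2a2, Trpm7, Ano6, Pip5k1a, Pip5k1c and Prkci were chosen after their values were seen. Some genes that the rule picks are not reported here. Python 3.11.15, numpy 2.4.6, pandas 2.3.3, scipy 1.17.1 and matplotlib 3.10.9 were used.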

Additional observations from a re-analysis of the deposited data

Results flagged for a closer look

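Trpm4 moved in opposite directions in the tissues, with a log2(EGFP/Tomato) of 2.22 in the trachea and -1.44 in the stomach, where it missed the 4-fold rule. The log2 ratios differed by 3.66, with an interval of counting error from 2.98 to 4.57. Whether the difference would hold among mice was not tested, since each value comes from 1 pair of pooled libraries.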

How the results depend on the processing

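All 360 log2 ratios of the 10 genes recomputed under other pseudocounts, minimums and scalings, with 4 comparisons each, gave 0 called values of the opposite sign. This could not have come out otherwise. A minimum leaves the ratio as it is, and a pseudocount cannot turn its sign. The scalings moved the median over all genes by at most 0.58, while a call needs a log2 ratio of 2. Only the calls themselves could change. With an 8-fold rule, 2 genes were higher in the EGFP library of the trachea (Itpr2 and Trpm5) and 3 in that of the stomach (without Plcg2), and 1 was lower in the tracheal than in the gastric Tomato library (Plcb1). Over all genes that rule left 2067 higher and 2810 lower in the trachea and 1029 and 1834 in the stomach. Between the Tomato libraries it left 1541 higher and 2502 lower in the trachea. With a minimum of 500 normalized counts, 0 genes were lower in the EGFP library of the stomach and 0 lower in the tracheal than in the gastric Tomato library, since fewer genes were measured. Over all genes that minimum left 1162 higher and 1459 lower of 2651 and 3411 in the trachea, and 663 and 605 of 1639 and 2487 in the stomach. Between the Tomato libraries it left 1149 and 769 of 2298 and 3167. Between the EGFP libraries, 2 genes (Plcb2 and Itpr3) were higher in the trachea at the same total, with or without immunoglobulin genes, and 1 (Itpr3) at the upper quartile, and 1 (Itpr1) was lower with a minimum of 20 or none. Over all genes, 2048 of 10337 were higher there at first. This became 2572 of 10446 at the same total, 2374 of 10563 without immunoglobulin genes and 2117 of 10369 at the upper quartile. A minimum of 20 left 3704 of 11711 genes lower, and no minimum 5130 of 16732. Trpm4 lost its calls with a pseudocount of 10, at 1.87 in the trachea and -1.80 between the Tomato libraries, and with a minimum of 500 it was not measured.

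Shares moved with the length used, in the order EGFP trachea, Tomato trachea, EGFP stomach and Tomato stomach. With the longest transcript Plcb2 made up 62.7, 8.62 and 12.3% in the first 3 and Plcg2 36.8, 3.72, 87.4 and 46.6%. Without a length correction these were 66.8, 8.58 and 14.4% and 32.7, 3.09, 85.3 and 40.5%. Itpr2 in the EGFP libraries moved to 44.3 and 87.0% with the longest transcript and 50.8 and 89.6% without correction, and Itpr3 to 55.6, 4.82, 11.5 and 74.8% and to 49.1, 4.40, 9.14 and 72.3%. Trpm5 moved to 99.5, 92.3 and 78.9% in EGFP trachea and both Tomato libraries with the longest transcript, and to 99.5, 92.0, 99.7 and 78.2% without correction. The leading gene of a family stayed in place in each library with the longest transcript, and without correction Itpr2 passed Itpr3 in the EGFP library of the trachea. Between the EGFP libraries the same total put Trpm5 at 0.98 and Itpr2 at -0.80 on the log2 scale, from 0.53 and -1.25. No paired analysis was possible because each group holds 1 library. Depth limits the low values, as 3 reads amount to between 2.36 and 4.83 normalized counts.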

Other observations

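The branch of the pathway around diacylglycerol and PIP2 was not described above. Pip5k1b, which makes PIP2, was higher in EGFP-positive cells of both tissues, with 1113 normalized counts against 0 in the trachea and 1228 against 197 in the stomach. The other 2 enzymes of its type, Pip5k1a and Pip5k1c, were neither higher nor lower in either tissue. The phosphatidylinositol transfer protein gene Pitpna was lower in the trachea, at 71 against 1070, and higher in the stomach, at 1279 against 306. Dgki, a diacylglycerol kinase, was higher in both tissues, at 328 against 0 and 1524 against 11, while Dgka was lower in the trachea, at 448 against 3902, and neither in the stomach, at 237 against 129.

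Of the protein kinase C genes, most of which encode forms that diacylglycerol activates, 3 were measured in the trachea and 7 in the stomach. Prkcz, which like Prkci is a form that does not need diacylglycerol, was higher in the trachea at 525 against 27. In the stomach Prkca, which only just reached the minimum, and Prkci were higher, at 50 against 6 and 99 against 17. In the trachea Prkci leaned the other way, at 0 against 49, just under the minimum. Prkcb, Prkce and Prkch were lower in the stomach, at 2 against 106, 3 against 122 and 1 against 52. Among phosphatases of the list on inositol phosphates, Inpp1, which acts on products of IP3, was higher in the stomach, at 264 against 9, and lower in the trachea, at 60 against 311. Impad1, which is better known as a nucleotide phosphatase of the Golgi, was lower in both tissues, at 262 against 2085 and 345 against 1897. Each of these values rests on 1 library per sort and tissue, and differences between the tissues were not tested.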
